A study of Sus scrofa with 32 samples.

Results

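Interferon-stimulated genes were followed across the cells of the porcine ileum and of blood. The 9 genes listed were ISG15, ISG20, MX1, MX2, IFIT1, IFIT3, IFITM3, IFI6 and IRF7. All but IFIT3 were found by symbol, so that 8 of the 25880 genes in the count matrices are described. They were measured in 48629 cells, 35386 from ileum and 13243 from blood. Each cell held at least 1250 UMIs (unique molecular identifiers, each marking a captured transcript) and at least 550 genes, with at most 12.5% mitochondrial UMIs. Cells were sorted in silico into lineage gates by marker genes, none of which is among the 9, and the levels in ileum and blood were compared within each gate.

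The cells came from 2 mixed-breed pigs of about 7 weeks, labelled as a female (pig 1) and a male (pig 2), with no treatment. From each pig, ileum with Peyer's patches (PP), ileum without them (non-PP), whole ileum and peripheral blood mononuclear cells (PBMC) each gave 1 library of 3′-end droplet single-cell RNA-seq, 6 ileal and 2 blood libraries in all. Muscle was removed from the ileal tissue, which was digested with enzymes and enriched for live cells by a density gradient and removal of dead cells, whereas blood was fractionated in preparation tubes. The pig is the replicate, with n = 2 in each group, and both the tissue and its handling differ between ileum and blood and cannot be told apart.

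Interferons are cytokines that cells release on sensing microbial nucleic acids. They bind receptors that work through JAK kinases and STAT transcription factors, which switch on a large set of antiviral genes in the same cell and its neighbours. Many of these genes are also expressed at a low tonic level in healthy tissue, and monocytes and dendritic cells are known for high levels of them.

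The listed genes act at different steps of that defence. Among the direct effectors, MX1 and MX2 are dynamin-like GTPases that block early steps of viral replication, IFIT1 binds viral RNA whose cap is not the host's, IFITM3 hinders fusion of viruses with endosomal membranes and ISG20 is an exonuclease that degrades RNA. ISG15 is a ubiquitin-like protein that is attached to other proteins and also secreted, and IFI6 is a small membrane protein of the endoplasmic reticulum and mitochondria. IRF7 is the transcription factor that amplifies the production of type I interferons. In the RefSeq annotation of Sscrofa11.1, MX2 (chromosome 13, 204798633 to 204821612) and MX1 (204843049 to 204868927) lie side by side, as do IFIT3 (chromosome 14, 101214730 to 101225169) and IFIT1 (101237403 to 101249486). IFITM3 (128658 to 129736) and IRF7 (372235 to 375572) lie on chromosome 2, ISG15 (63363201 to 63364211) and IFI6 (84852782 to 84858072) on chromosome 6, and ISG20 (191155853 to 191195601) on chromosome 1.

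The libraries held between 12373348 and 32247619 UMIs in the cells kept, with medians of 2577.5 to 3583.5 UMIs per cell, and any 2 libraries shared 21 to 80 cell barcodes, 0.556% to 1.23% of the smaller one. One library went against its label. Y-linked genes gave 207 CPM (UMIs scaled to a common total) in whole ileum of pig 1 as labelled, within the 119 to 226 CPM of the 4 pig 2 libraries, while the other pig 1 libraries held between 0 and 0.224 CPM. Its label was kept, and many tests of the members are also given without it. If the library came from pig 2, the ileal sums of pig 1 that include it mix both animals. The 2 ileal replicates would then not be independent, and the p-values with it may rest on too small a spread. The results of the other pathway genes, the correlations among the members and most ileal levels of pig 1 are given only with it. Without it, ISG15 of pig 1 stood at 579 CPM in ileal T and 185 CPM in ileal myeloid cells, against 849 and 302 CPM with it. The T gate held between 1767 and 3604 cells per library and the B gate between 27 (non-PP pig 1) and 4906, with CD3E found in 75.01% to 95.46% of the T gate cells. The myeloid gate held 412 and 1236 cells in blood but only 136 and 129 cells in the ileum of pigs 1 and 2, and the epithelial gate held 426 and 208 ileal cells. Plasmacytoid dendritic cells, the main producers of type I interferon, numbered 5 and 14 in blood and 1 in ileum, too few to be summed.

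Levels are likewise given as CPM, here the UMIs of a gene scaled to a common total of the summed gate, and are compared for a gene between gates or tissues, never between genes. In blood, the myeloid gate stood above every lymphocyte gate of the same pig for every member. ISG15 reached 1437 CPM (pig 1) and 2944 CPM (pig 2) in blood myeloid cells, against 376 and 1403 in T, 368 and 1250 in NK/ILC and 305 and 1080 in B cells. IFITM3 reached 4381 and 7516 CPM, against 568 and 1373 in T, 483 and 1450 in NK/ILC and 454 and 999 in B cells. IRF7 reached 411 and 811 CPM, against 22.0 and 99.7 in T, 27.04 and 93.4 in NK/ILC and 108 and 259 in B cells. Pig 2 was the higher of the pair in each of these gates, so that the ISG15 level of pig 2 T cells (1403 CPM) came close to that of pig 1 myeloid cells (1437 CPM).

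With edgeR's quasi-likelihood test on the sums, all 8 members were higher in the blood myeloid gate than in the mean of the blood T, NK/ILC and B gates, where 22.3% of all 11225 genes tested were called higher (Benjamini-Hochberg adjusted p under 0.05). The log2 fold changes ran from 1.52 (IFI6, SE 0.38, adjusted p = 0.00317) and 1.54 (ISG15, SE 0.59, adjusted p = 0.0420) to 2.88 (IRF7, SE 0.43, adjusted p = 1.95e-05). Their median was 2.28, against 0 over all genes. DESeq2 called 7 of the 8. Of the other interferon pathway genes, 34 of the 60 tested were higher and 2 lower, led by CXCL10 (a chemokine that draws T cells, log2 6.69), IFIT5 (log2 5.06), the RNA sensor TLR8 (log2 4.83), IFIT2 (log2 4.502) and the RNA sensor TLR3 (log2 4.499). IFNG, the type II interferon that T and NK cells make, was lower in the myeloid gate (log2 −3.74), as was the receptor kinase JAK1 (log2 −0.71).

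**Figure D1:**
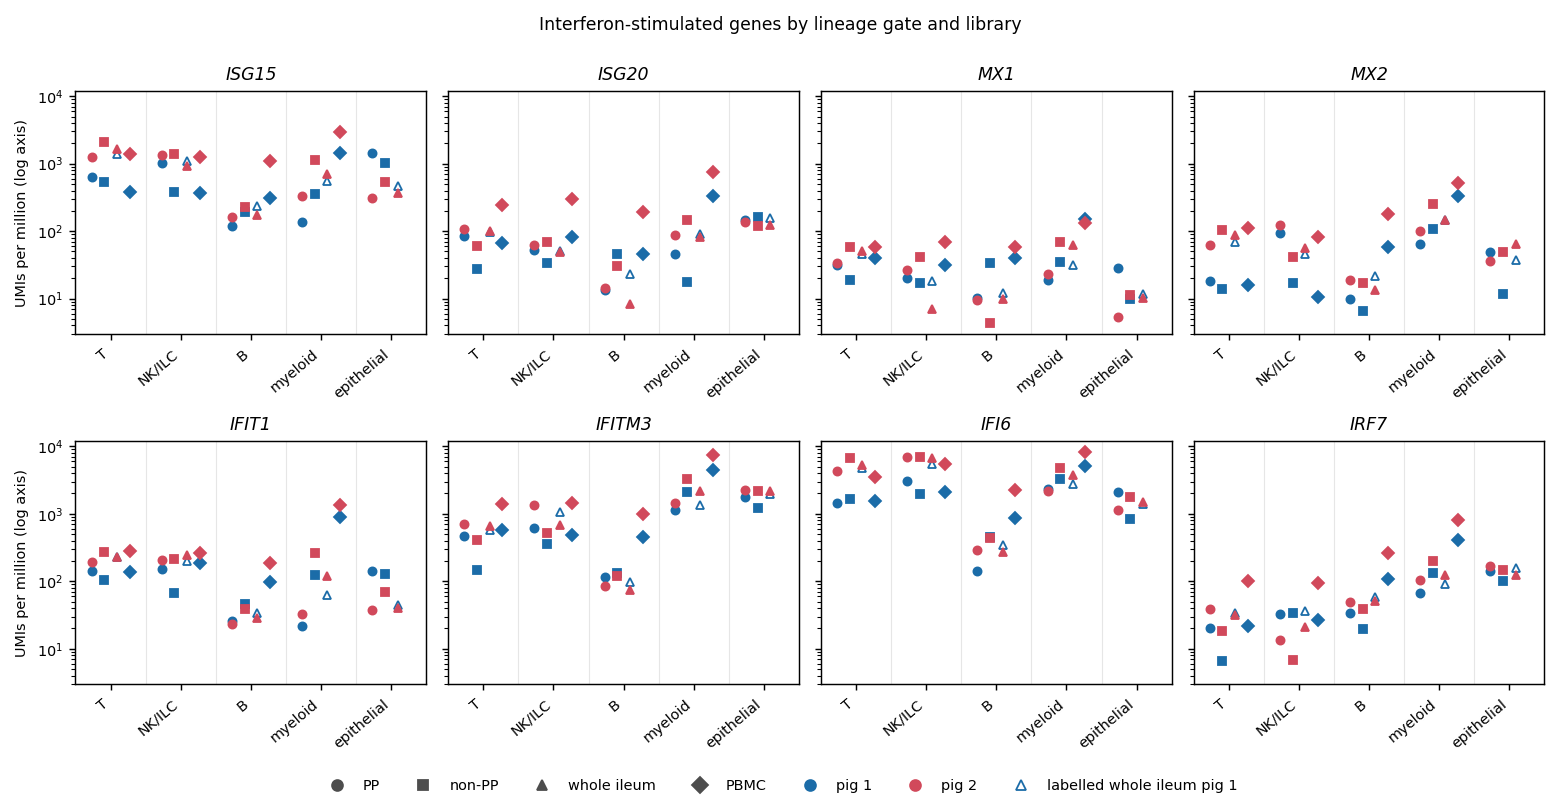
CPM of the 8 genes (log axis) in each lineage gate, 1 point per library with at least 20 cells in the gate; colour gives the pig, shape the dissection, and the open triangle the library labelled whole ileum pig 1. The PBMC points (diamonds) lie above the ileal points in the myeloid gate and, apart from ISG20 of pig 1 (45.6 CPM, with an ileal library of 27 cells at 46.4 CPM), in the B gate, and overlap with them in the T gate.

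Within the ileum, the order of gates was different. IFITM3 stood at 1354 and 2151 CPM in the myeloid gate and 1550 and 2194 CPM in the epithelial gate of pigs 1 and 2, against 375 and 547 in T, 758 and 921 in NK/ILC and 110 and 79.9 in B cells. IRF7 stood at 83.9 and 134 CPM in myeloid and 125 and 144 CPM in epithelial cells, against 19.2 and 27.3 in T, 34.9 and 13.5 in NK/ILC and 42.0 and 50.2 in B cells. Neither gene's myeloid and epithelial sums overlapped with its lymphocyte sums, but in single libraries IFITM3 reached 1330 CPM in NK/ILC cells, above the lowest myeloid (1147 CPM) and epithelial (1227 CPM) values. ISG15 was instead at 302 and 663 CPM in myeloid cells, below the 849 and 1754 CPM of T and the 908 and 1240 CPM of NK/ILC cells, and above the 157 and 168 CPM of B cells. The part of free RNA in these levels was not tested.

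In the ileal myeloid gate, 3 members were higher than in the lymphocyte gates, where 17.7% of all genes were called higher. They were IFITM3 (log2 2.43, SE 0.43, adjusted p = 0.00023), IRF7 (log2 1.91, SE 0.53, adjusted p = 0.00968) and MX2 (log2 1.70, SE 0.62, adjusted p = 0.0438), and in a fit with pig as a replicate block (called the blocked fit, in which tissues and gates are compared within each pig) IFI6 was added (log2 0.82, adjusted p = 0.00283). The median of the 8 was 0.94, against −0.09 over all genes. MX1 (log2 0.82), ISG20 (log2 1.06), IFIT1 (log2 −0.21) and ISG15 (log2 −0.31) did not pass. Leaving out the ileal sum of pig 1 left 1 call and leaving out that of pig 2 left 0. Among the other pathway genes 21 of 60 were higher, led by TLR8, TLR3, CXCL9 (a chemokine induced by interferon gamma, log2 5.03), CXCL10 (log2 4.04) and IFNGR2 (a chain of the interferon gamma receptor, log2 2.87), and IFNG (log2 −1.98) and GBP2 (a guanylate-binding protein, log2 −1.03) were lower.

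In the ileal epithelial gate 3 members were higher than in the lymphocyte gates, where 30.7% of all genes were called higher. The 3 of 8 are near that share, so the count does not set the members apart from all genes. IFITM3 was higher by 2.58 on the log2 scale (SE 0.43, adjusted p = 3.92e-05), IRF7 by 2.28 (SE 0.47, adjusted p = 0.000382) and ISG20 by 1.99 (SE 0.50, adjusted p = 0.00219). ISG20 stood at 157 and 126 CPM in epithelial cells, against 66.1 and 83.2 in T and 16.9 and 11.4 in B cells. The median of the 8 was 0.28, against −0.01 over all genes, and the other 5 lay between −0.48 (MX1) and 0.46 (ISG15). In the blocked fit without the library labelled whole ileum pig 1, ISG15 was also called higher (log2 1.20, adjusted p = 0.0226). Of the other pathway genes, 24 of 60 were higher and 11 lower, and the share of all genes called lower is not reported here. OASL, an antiviral protein of the oligoadenylate synthetase family, gave 263 and 143 UMIs in epithelial cells (62.2 and 61.5 CPM), against 53 and 64 UMIs (2.08 and 3.13 CPM) in the far larger T gate. IFNLR1, the receptor chain for the lambda interferons, gave 47 and 22 UMIs in epithelial cells (11.12 and 9.46 CPM) and 6 and 7 UMIs in T cells (0.236 and 0.342 CPM). TLR3 and IFIT2 (log2 2.79) were also among the leading genes, and IRF5, IFNG, the phosphatase PTPN6, SAMHD1 and BST2 led those that were lower (log2 −2.94 to −1.20).

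Ileum was then compared with blood within each gate. In the B gate all 8 members were lower in ileum, where 13.6% of all genes were called lower. IFI6 stood at 142 to 451 CPM over the 6 ileal libraries (median 318), against 870 and 2254 CPM in blood. IFITM3 stood at 74.0 to 133 CPM (median 107) in ileum, against 454 and 999 CPM in blood. MX1 stood at 4.31 to 33.2 CPM (median 10.1) in ileum, against 40.5 and 57.7 CPM in blood. No ileal library overlapped with either blood library for these genes. ISG20 stood at 8.34 to 46.4 CPM (median 18.9) in ileum and 45.6 and 195 CPM in blood, and so overlapped, through the non-PP library of pig 1 with its 27 cells. For ISG15 the ileal libraries held 118 to 232 CPM (median 183) and blood 305 and 1080 CPM, and for IRF7 the ileal libraries held 19.9 to 58.5 CPM (median 44.2) and blood 108 and 259 CPM.

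With the counts as deposited, the largest changes in the B gate were those of ISG20 (log2 −3.20, SE 0.68, adjusted p = 0.00127), MX2 (log2 −3.10, SE 0.75, adjusted p = 0.00357) and IFITM3 (log2 −3.05, SE 0.62, adjusted p = 0.000887). IFI6 (log2 −2.77, SE 0.54, adjusted p = 0.000568), IFIT1 (log2 −2.48, SE 0.51, adjusted p = 0.000968) and MX1 (log2 −2.34, SE 0.32, adjusted p = 1.58e-05) followed. IRF7 (log2 −2.10, SE 0.59, adjusted p = 0.00983) and ISG15 (log2 −2.20, SE 0.81, adjusted p = 0.0449) had the highest p-values of the 8. The median was −2.63, against 0.11 over all genes. DESeq2 and the blocked fit also called all 8. Leaving out the ileal sum of pig 1 left 5 calls and leaving out that of pig 2 left 3, and without the library labelled whole ileum pig 1 the call of ISG15 was lost. In the 6 ileal libraries at least 1 member stood in B cells at 9.19% to 22.2% of its level in the nearly empty barcodes (1 to 50 UMIs) of the same library, which bounds the share of free RNA in those sums. The lowest such values in blood B cells were 47.2% (IFIT1, pig 1) and 36.2% (IFITM3, pig 2). All 8 calls held after removal of a 10% share of ambient RNA. IFI6 stood in ileal B cells at 9.19% to 34.0% of its level in those barcodes, against 60.5% and 58.5% in blood. The removal thus took a larger part of its ileal than of its blood UMIs, and could only deepen its fall. It moved IFI6 to −5.59, ISG20 to −3.89, IFITM3 to −3.77 and ISG15 to −3.08. In the PP and whole ileum libraries every member stood lower against those barcodes than in the blood B cells of that pig. IFIT1 stood there at 19.15% to 29.6% (47.2% and 37.3% in blood) and MX1 at 52.2% to 72.3% (128.6% and 118.7%). MX2 stood at 26.3% to 74.0% (158.5% and 94.7%) and IRF7 at 41.8% to 98.5% (156.6% and 90.3%). The held calls are thus no check for any of the 8. Larger shares were not tested.

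The other interferon pathway genes moved the same way in the B gate: 49 of the 60 tested were lower and 1 was higher, with a median of −1.85. Of the 33 antiviral effectors tested 32 were lower. The largest falls were those of IFIT2 (log2 −3.83), RSAD2 (viperin, log2 −3.71), the helicase DDX60 (log2 −3.17), DDX58 (the RNA sensor RIG-I, log2 −3.02) and PML (log2 −2.83). RSAD2 stood at 7.45 and 6.27 CPM in ileal and 45.1 and 122 CPM in blood B cells of pigs 1 and 2. PML, which organizes nuclear bodies, stood at 17.0 and 16.3 CPM in ileal and 95.7 and 126 CPM in blood B cells. Both genes thus had ileal values well apart from the blood values and nearly alike in the 2 pigs. Of the genes that carry the signal, 2 of 5 receptors, 5 of 7 signalling genes and 7 of 9 sensors and adaptors were lower. The gene that was higher was IRF8, a transcription factor of germinal centre B cells and dendritic cells, at 256 and 240 CPM in ileum and 65.0 and 74.7 CPM in blood (log2 1.74).

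The share of B gate cells that passed a resting gate with CCR7 differed between the tissues mainly in pig 2. Cells with CCR7 and without a set of genes that includes the proliferation genes TOP2A, PCLAF and BIRC5 are called resting B here. Their share depends on finding a CCR7 UMI, and so on depth, and is not the share of all resting cells. Median depths of the B gate were 2772 to 3258 UMIs in the PP and whole ileum libraries and 3456 and 4452 UMIs in blood. They made up 5.56% to 10.8% of the B gate in the PP and whole ileum libraries and 11.5% and 17.8% in blood. In pig 1 as labelled, the shares were 10.5% (PP) and 10.8% (whole ileum), near the 11.5% of blood. Near shares do not show that the other cells of the B gate were alike. The non-PP libraries, with 5 resting B cells each, held 18.5% and 9.62%. Within the narrower resting B gate the differences between ileum and blood were smaller. MX1 stood at 20.3 and 16.5 CPM in ileal and 44.7 and 74.5 CPM in blood resting B cells, and IFIT1 at 52.7 and 38.6 CPM against 119 and 155 CPM. ISG15 stood at 468 and 656 CPM in ileum and 342 and 1032 CPM in blood, so that its ranges overlapped.

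In resting B cells 1 member was called lower in ileum, MX1 (log2 −1.69, SE 0.48, adjusted p = 0.0324), where 4.96% of the 8689 genes tested were called lower. The median of the 8 was −1.01, against 0.02 over all genes. In the blocked fit MX1, IFIT1 (log2 −1.49, adjusted p = 0.00317), IFITM3 (log2 −0.85, adjusted p = 0.0145) and IFI6 (log2 −0.55, adjusted p = 0.0202) were lower, with 7.07% of all genes called lower, and without the library labelled whole ileum pig 1 MX2 was added (log2 −1.26, adjusted p = 0.0426). Without the block, the call of MX1 was lost when that library, either ileal sum or the blood sum of pig 2 was left out, and leaving out the blood sum of pig 1 gave 4 calls. Of 56 other pathway genes 5 were lower, TNFSF10 (the death ligand TRAIL, log2 −2.31), SAMD9, PLSCR1, SAMHD1 and PTPN6, and IRF8 (log2 1.55) and IL10RB (log2 1.09) were higher. The blocked fit called 18 lower and 4 higher.

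In the myeloid gate 6 members were lower in ileum than in blood, where 11.0% of all genes were called lower. IFIT1 showed the widest gap of all members and gates: 21.6 to 265 CPM over the 6 ileal libraries (median 90.6) against 886 and 1341 CPM in blood. ISG20 stood at 17.7 to 148 CPM (median 85.0) in ileum and 334 and 762 CPM in blood. MX1 stood at 19.2 to 68.9 CPM (median 33.3) in ileum and 150 and 131 CPM in blood. The ileal and blood values did not overlap for these genes, nor for IFITM3, which stood at 1147 to 3273 CPM (median 1780) in ileum and 4381 and 7516 CPM in blood.

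The changes were those of IFIT1 (log2 −3.80, SE 0.56, adjusted p = 7.16e-05), ISG20 (log2 −2.89, SE 0.71, adjusted p = 0.00534), IRF7 (log2 −2.57, SE 0.63, adjusted p = 0.00498) and MX1 (log2 −2.04, SE 0.37, adjusted p = 0.000486). ISG15 (log2 −2.26, SE 0.82, adjusted p = 0.0485) and IFITM3 (log2 −1.84, SE 0.60, adjusted p = 0.0280) also passed. MX2 (log2 −1.87, adjusted p = 0.0755) and IFI6 (log2 −1.25, adjusted p = 0.0820) did not pass, and were called in the blocked fit, in which all 8 members were lower and 12.9% of all genes were called lower. The median of the 8 was −2.15, against 0 over all genes. Leaving out the ileal sum of either pig left 2 calls, removal of a 10% share of ambient RNA left 4, as did gates with doubled minimum UMIs, and leaving out the library labelled whole ileum pig 1 left 5. The ileal sums rest on few cells, with 39 and 89 UMIs of IFIT1 and 20 and 35 UMIs of MX1 in pigs 1 and 2. ISG15 stood in ileal myeloid cells at 21.2% to 75.3% of its level in the nearly empty barcodes, against 259% and 156% in blood. IFIT1 stood at 24.9% to 128.5%, against 428% and 270%. For both genes the removal of ambient RNA could only deepen the fall. IFITM3, at up to 651% in ileum against 530% and 273% in blood, did not stand lower throughout.

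The make-up of the myeloid gate also differed. The macrophage complement genes C1QA, C1QB and C1QC stood at 4591, 3793 and 2333 CPM in ileum and 14.0, 28.6 and 12.3 CPM in blood. The dendritic cell genes FLT3 and XCR1 stood at 136 and 22.3 CPM in ileum and 3.07 and 2.02 CPM in blood. VCAN, a monocyte gene, stood at 9.83 CPM in ileum and 166 CPM in blood. The T cell gene CD3E was at 39.98 CPM in the ileal and 13.1 CPM in the blood myeloid gate, against 1493 CPM in ileal T cells. The part that this make-up has in the members' levels was not tested.

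Of the other pathway genes 35 of 60 were lower in ileal myeloid cells and 3 were higher, with 24 of the 33 effectors lower. IFIT2 (log2 −4.21), CXCL10 (log2 −3.81), RSAD2 (log2 −3.14) and IFIT5 (log2 −2.99) were among those that led. CXCL10 stood at 225 and 376 CPM in ileal and 2866 and 5115 CPM in blood myeloid cells of pigs 1 and 2. The genes that were higher were IRF8 (274 and 353 CPM in ileum, 102 and 100 CPM in blood), CXCL9 (28 and 14 UMIs in ileum, 29 and 28 UMIs in blood, at 35.6 and 18.9 against 10.9 and 3.21 CPM) and IFNG, which rested on 1 and 7 UMIs in ileum and 6 and 7 UMIs in blood. IFNG stood at 1.27 and 9.47 CPM in ileum and 2.25 and 0.803 CPM in blood, and so was higher in pig 2 but not in pig 1. IRF8 and CXCL9 are both induced by interferon gamma, and IRF8 is also a transcription factor of dendritic cells. Any link of their levels to IFNG or to the make-up of the gate was not tested.

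**Figure D2:**
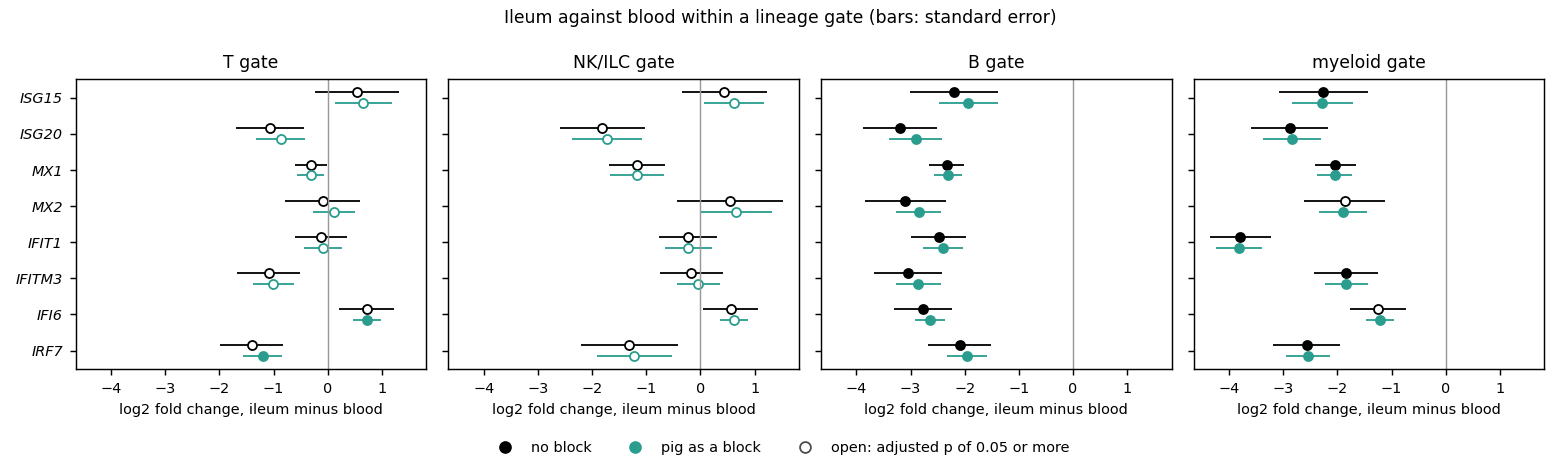
Log2 fold change of ileum minus blood for the 8 genes in the T, NK/ILC, B and myeloid gates, without a block (black) and with pig as a block (green); bars are standard errors, and filled points have an adjusted p under 0.05. All 8 points lie left of 0 in the B and myeloid gates, and on both sides of 0 in the T and NK/ILC gates.

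The T gate showed no such fall of all members together. ISG15 stood at 536 to 2090 CPM over the 6 ileal libraries (median 1342.5) and at 376 and 1403 CPM in blood. IFI6 stood at 1459 to 6633 CPM (median 4501.5) in ileum and 1521 and 3449 CPM in blood. MX1 stood at 18.7 to 57.3 CPM (median 39.7) in ileum and 40.7 and 57.8 CPM in blood. The ileal range covered or overlapped the blood values of each member. Taken as ratios, the IFI6 levels of the pigs of one tissue lay further apart than those of the tissues of one pig. They were 2604 and 5681 CPM in the ileal and 1521 and 3449 CPM in the blood sums. The ileal sum of pig 1 without the library labelled whole ileum pig 1 held 1587 CPM.

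None of the 8 was called in the T gate by edgeR without a block (19.0% of all genes called in either direction) or by DESeq2, and 1 (IRF7, log2 −1.40) had an unadjusted p under 0.05. The median was −0.22, against 0.05 over all genes. In the blocked fit, IRF7 was lower (log2 −1.20, SE 0.36, adjusted p = 0.0158) and IFI6 higher in ileum (log2 0.73, SE 0.26, adjusted p = 0.0366), with 27.5% of all genes called. Once the library labelled whole ileum pig 1 was left out of the blocked fit, IRF7 remained lower (log2 −1.49, adjusted p = 0.003), IFITM3 was lower (log2 −1.20, adjusted p = 0.0294) and IFI6 no longer passed (log2 0.45, adjusted p = 0.31). Leaving out the blood sum of pig 1 gave 3 calls and leaving out that of pig 2 gave 2, of which MX2 (log2 1.88) was higher in ileum while its main value was −0.09. IRF7 stood at 22.0 and 99.7 CPM in the blood and 6.66 to 38.9 CPM in the ileal T cells. Within the sums of each pig, MX1, IFITM3 and IRF7 were lower and ISG15 and IFI6 higher in ileum. ISG20, MX2 and IFIT1 were higher in pig 1 and lower in pig 2. Without the library labelled whole ileum pig 1, these 3 were lower in pig 1 too, MX2 only barely (15.8 against 16.0 CPM).

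Of the other pathway genes in the T gate, 5 of 60 were higher and 8 lower. Higher were IFNGR1 (the binding chain of the interferon gamma receptor, log2 2.35), IFNG (log2 1.502), IRF8 (log2 1.29), IRF3 (log2 0.60) and IFNLR1, with 6 and 7 UMIs in ileal T cells and 0 in blood. IFNG stood at 126 CPM in the ileal T cells of both pigs and 41.2 and 47.2 CPM in those of blood. Lower were TLR8, with 5 and 2 UMIs in ileum and 9 and 18 UMIs in blood, and IRF5 (log2 −1.82), TNFSF10 (log2 −1.40), PML (log2 −1.15) and SAMD9 (log2 −1.05) led the rest. In ileal T cells the gene for interferon gamma and that for one chain of its receptor were higher, while the other chain, IFNGR2, was lower (log2 −1.02, adjusted p = 0.0294). Without the block none of the 33 effectors was called higher and 4 were called lower, where 19.0% of all genes were called in either direction. Any link between these genes and the effectors was not tested. The blocked fit called 14 of the 60 pathway genes lower and 6 higher, with 7 effectors lower and 1, the ligase HERC6, higher (log2 0.69, adjusted p = 0.0194).

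The NK/ILC gate held cells with at least 3 UMIs of at least 2 NK and innate lymphoid genes and none of the T markers. Innate lymphoid cells with CD3G UMIs thus fell outside it. ISG15 stood at 383 to 1372 CPM (median 1067.5) in ileum and 368 and 1250 CPM in blood, and MX1 at 6.94 to 41.0 CPM (median 19.1) against 31.2 and 69.1 CPM. The ranges overlapped for both. None of the 8 was called by edgeR, with or without the block, or by DESeq2 (9.30% of all genes called), and 2 had an unadjusted p under 0.05, ISG20 (log2 −1.81) and MX1 (log2 −1.18). Leaving out the blood sum of pig 1 gave 2 calls. The sums rest on 162 to 192 cells, and MX1 gave 9 and 13 UMIs in ileum. Among the other pathway genes 3 were higher, IFNGR2 (log2 3.26), IFNGR1 (log2 3.18) and the adaptor MYD88 (log2 1.06), and 8 were lower, among them TNFSF10 (log2 −2.42), SAMD9 (log2 −1.77), IRF2, SAMHD1 and JAK1.

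The T gate was also divided by CD4, CD8B and TRDC, the constant gene of the delta chain. IFITM3 stood at 807 and 1139 CPM in the ileal CD4 T cells of pigs 1 and 2 and 1369 and 2100 CPM in those of blood, at 343 and 616 against 463 and 1031 CPM in CD8 T cells, and at 215 and 330 against 471 and 1168 CPM in γδ T cells. IFI6 went the other way in each pig, with 1979 and 4396 against 1191 and 3136 CPM in CD4, 2411 and 5343 against 1338 and 3392 CPM in CD8, and 2602 and 5708 against 1444 and 2272 CPM in γδ T cells. IFITM3 was thus lower and IFI6 higher in ileum in all 6 pairs of one pig. Without the library labelled whole ileum pig 1, the ileal IFI6 levels of pig 1 were 1052 CPM in CD4, 1439 CPM in CD8 and 1715 CPM in γδ T cells, so that CD4 T cells turned to below blood and CD8 T cells came near it, while IFITM3 (640, 229 and 164 CPM) stayed below blood. Among γδ T cells, ISG15 stood at 907 and 1988 CPM in ileum and 320 and 850 CPM in blood, and IRF7 at 8.48 and 16.6 CPM in ileum and 26.4 and 113 CPM in blood.

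In CD4 T cells none of the 8 was called by edgeR without a block (10.7% of all genes called), by DESeq2 or at an unadjusted p under 0.05. The same held for CD8 T cells (13.4% of all genes called). The blocked fit called IFITM3 lower (log2 −0.86, adjusted p = 0.0121) and IFI6 higher (log2 0.57, adjusted p = 0.0167) in CD4 T cells, with 15.4% of all genes called, and IFI6 higher in CD8 T cells (log2 0.75, adjusted p = 0.00169), with 22.1% of all genes called. Without the library labelled whole ileum pig 1 in that fit, IFI6 lost its call in CD4 (log2 0.15, adjusted p = 0.74) and CD8 T cells (log2 0.40, adjusted p = 0.244), IFITM3 was lower in both (log2 −1.04 and −0.86) and IRF7 was lower in CD8 T cells (log2 −1.21). Leaving out the blood sum of pig 1 gave 2 calls in CD8 T cells.

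In γδ T cells 1 member, IFITM3, was lower without a block (log2 −1.56, SE 0.49, adjusted p = 0.0412), where 8.14% of all genes were called lower. In the blocked fit ISG15 (log2 1.40, SE 0.27, adjusted p = 0.0011) and IFI6 (log2 1.10, SE 0.15, adjusted p = 4.69e-05) were higher and IFITM3 (log2 −1.47, SE 0.22, adjusted p = 0.000102) and IRF7 (log2 −2.30, SE 0.43, adjusted p = 0.000881) lower in ileum, with 25.8% of all genes called. All 4 calls held in the blocked fit without the library labelled whole ileum pig 1, where ISG15 was at 1.14 and IFI6 at 0.78. The gate did not separate γδ T cells with and without CD2, which the authors describe as separate cell types. The part of this make-up in the values was not tested. Without the block, the call of IFITM3 was lost when that library or either ileal sum was left out, and leaving out the blood sum of pig 1 gave 3 calls. The medians of the 8 without the block were −0.55 in CD4, −0.05 in CD8 and −0.37 in γδ T cells, each against −0.02 to 0.02 over all genes. Of 56 other pathway genes, 4 were higher in each of the 3 gates, and IFNGR1, IFNG and IRF8 were among them each time, while 3 (CD4), 5 (CD8) and 4 (γδ) were lower. In the blocked fit 5, 7 and 8 were higher and 8, 9 and 9 lower.

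**Figure D3:**
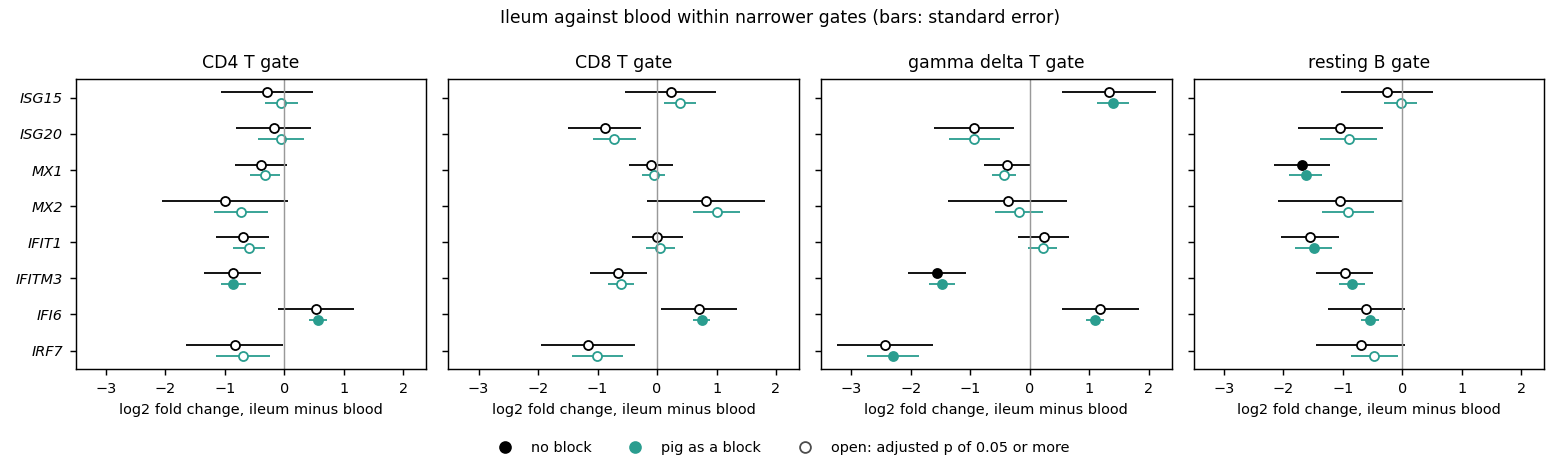
Log2 fold change of ileum minus blood for the 8 genes within CD4 T, CD8 T, γδ T (gamma delta T) and resting B cells, drawn as for the wider gates with standard errors and filled points for an adjusted p under 0.05. In γδ T cells ISG15 and IFI6 lie right of 0 and IFITM3 and IRF7 left of it, while in resting B cells MX1 lies at −1.69 and ISG15 near 0.

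The gates were then compared directly, by testing the change from blood to ileum in one gate minus that in the T gate. The change in the B gate was more negative for 4 members, where 7.88% of all genes were called lower. These were IFI6 (difference of log2 fold changes −3.49, SE 0.73, adjusted p = 0.00221), MX2 (−3.00, SE 1.00, adjusted p = 0.0448), IFIT1 (−2.36, SE 0.70, adjusted p = 0.0230) and MX1 (−2.02, SE 0.43, adjusted p = 0.00253). The blocked fit called 7, with 11.2% of all genes, and did not call IRF7 (difference −0.76, adjusted p = 0.317). Removal of a 10% share of ambient RNA moved IFI6 to −6.39 and IFIT1 to −3.00, and both calls held. For both genes this is no check, since their low levels in ileal B cells against ambient RNA let the removal only deepen the difference. In the PP and whole ileum libraries, IFIT1 stood in B cells at 19.15% to 29.6% of its ambient level (47.2% and 37.3% in blood). In T cells of those libraries it stood at 127.5% to 207.2% (66.9% and 57.2% in blood). The median was −2.25, against 0.02 over all genes. Leaving out the ileal sum of pig 1 or the library labelled whole ileum pig 1 left 2 calls, leaving out the ileal sum of pig 2 left 0, and leaving out either blood sum gave 7. Of 60 other pathway genes 29 were lower and 0 higher, with DDX60 at −3.62, IFIT2 at −3.36, RSAD2 at −3.07 and DDX58 at −2.64 among those with the largest differences. IFNLR1 also passed, with at most 7 UMIs in any T or B sum.

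The change in the myeloid gate was more negative than that in the T gate for 2 members, IFIT1 (difference −3.67, SE 0.73, adjusted p = 0.0025) and MX1 (−1.73, SE 0.48, adjusted p = 0.0233), where 4.33% of all genes were called lower. The blocked fit called 5, with 6.92% of all genes, adding IFI6 (−1.95), ISG15 (−2.94) and MX2 (−2.01), of which MX2 did not pass without the library labelled whole ileum pig 1 (adjusted p = 0.0509). Without the block, leaving out that library or either ileal sum left 1 call and leaving out the blood sum of pig 2 gave 7. The median was −1.80, against −0.06 over all genes, and 14 of 60 other pathway genes were lower, led by IFIT2 (−3.73), against 29 lower and 1 higher in the blocked fit. The change in the NK/ILC gate did not differ from that in the T gate for any member (0 called by edgeR, with or without the block, and by DESeq2, 0 at an unadjusted p under 0.05, 1.10% of all genes called). These comparisons share the T gate sums, so that their values are not independent of each other. The T gate may also hold some innate lymphoid cells with CD3G, whose part in these differences was not tested.

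Dissections with and without Peyer's patches were compared within the T, NK/ILC and B gates. In the T gate, IRF7 stood at 19.95 and 38.9 CPM in PP and 6.66 and 18.6 CPM in non-PP of pigs 1 and 2, ISG20 at 86.1 and 109 against 27.7 and 60.02 CPM, and IFITM3 at 462 and 701 against 148 and 402 CPM. All 3 genes were higher in PP in both pigs. The T gate's make-up also differed, with 228 and 179 CD4 T cells in PP against 43 and 85 in non-PP, and 497 and 517 γδ T cells against 1141 and 980. Within γδ T cells all 3 genes were higher in PP in both pigs. IRF7 stood there at 8.868 and 26.63 CPM in PP of pigs 1 and 2, against 3.399 and 11.98 CPM in non-PP. ISG20 stood at 37.69 and 29.95 against 13.59 and 19.65 CPM, and IFITM3 at 293.2 and 422.7 against 97.99 and 258.9 CPM. All 3 were also higher in PP in CD8 T cells of pig 1 (IRF7 15.64 against 6.208 CPM). In CD8 T cells of pig 2, IRF7 stood at 27.2 CPM in PP and 26.8 CPM in non-PP and ISG20 at 119 and 134 CPM. In CD4 T cells, IFITM3 of pig 2 (1138 and 1350 CPM) and IRF7 of pig 1 (16.7 and 45.81 CPM) were lower in PP. The part of the make-up in the T gate values was not tested. ISG15 stood at 640 and 1277 CPM in PP and 536 and 2090 CPM in non-PP, and was higher in PP in pig 1 only. None of the 8 was called by edgeR without a block or by DESeq2 (2.94% of all 8242 genes called), and IRF7 (log2 1.29), ISG20 (log2 1.22) and IFITM3 (log2 1.16) had an unadjusted p under 0.05. In the blocked fit IRF7 was higher in PP (log2 1.30, SE 0.33, adjusted p = 0.0196), where 2.68% of all genes were called higher, and leaving out the non-PP library of pig 2 gave 3 calls. Of the other pathway genes IFNGR2 alone was higher (log2 2.35, adjusted p = 0.0077), and the blocked fit called 3. In the NK/ILC gate (0.0607% of all genes called) and the B gate (0% of all genes called) none of the 8 was called by edgeR, with or without the block, or by DESeq2, and 1 (IFITM3) and 0 members had an unadjusted p under 0.05. The non-PP B gate held 27 and 52 cells, so that only large differences could be detected there.

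The pigs differed in these genes, with 1 animal of each, so that the difference has no test and pig and sex cannot be told apart. In the non-PP T gate all 8 members were at least 2-fold higher in pig 2 than in pig 1, as were 2.22% of genes at 10 CPM or more. MX2 stood at 13.8 and 104 CPM in pigs 1 and 2 there, IFI6 at 1677 and 6633 CPM and ISG15 at 536 and 2090 CPM. In the PBMC T gate 7 members were at least 2-fold higher (2.04% of genes), with MX1 at 40.7 and 57.8 CPM the exception, and in the PBMC B gate 6 were (1.27% of genes). In the PP T gate 2 members, MX2 and IFI6, passed 2-fold (0.862% of genes), with ISG15 just under it at 640 and 1277 CPM. Between the 2 libraries labelled whole ileum no member did (0.247% of genes), and every ratio lay between 0.926 (IRF7) and 1.27 (MX2).

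Epithelial cells did not follow that order for all members. In PP 2 of the 8 were higher in pig 2, in whole ileum 3 and in non-PP 5, of which MX2 (11.7 and 48.4 CPM) and IFI6 (834 and 1770 CPM) were at least 2-fold higher, as were 12.5% of genes. ISG15 stood at 1434 CPM in pig 1 and 311 CPM in pig 2 in PP, and at 1035 and 534 CPM in non-PP. IFIT1 stood at 140 and 37.7 CPM in PP and 126 and 70.0 CPM in non-PP. ISG15 and IFIT1 were thus higher in pig 1 in epithelial cells of the same libraries whose T cells had them higher in pig 2. IFITM3 was higher in pig 2 in both dissections, at 1802 and 2233 CPM in PP and 1227 and 2194 CPM in non-PP.

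**Figure D4:**
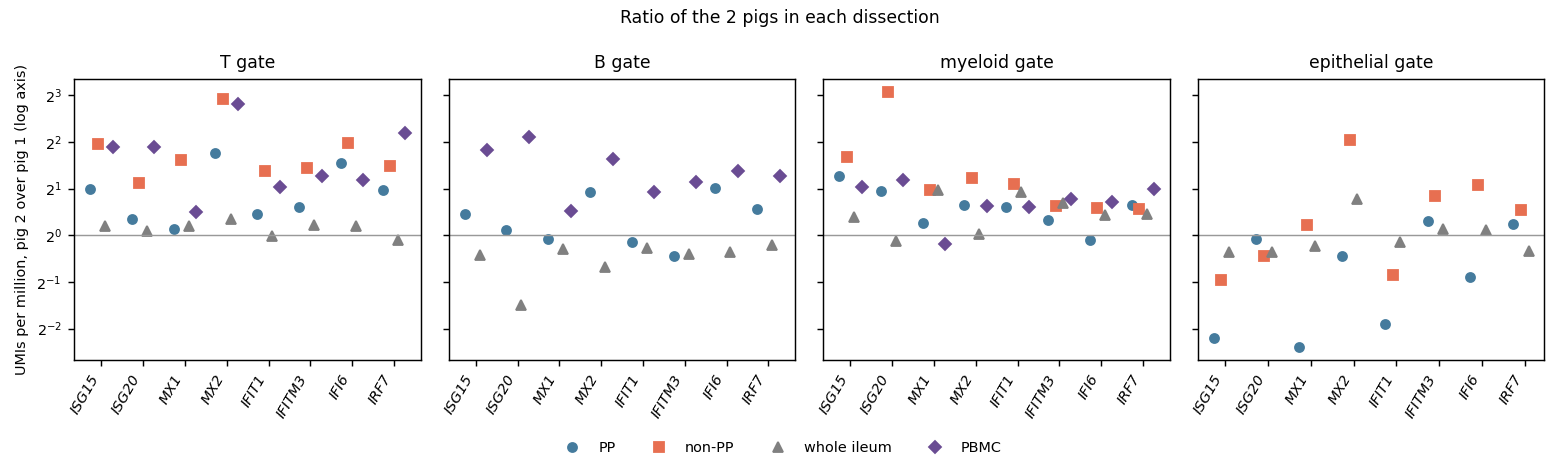
Level in pig 2 over that in pig 1 (log axis) for each of the 8 genes in each dissection, in the T, B, myeloid and epithelial gates; the B gate of non-PP, with 27 and 52 cells, is left out. In the T gate the PBMC and non-PP points lie above those of whole ileum, which lie between 0.926 and 1.27, and in the epithelial gate the ISG15 points lie below 1.

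The spread among cells was described after each cell had been thinned to 1250 UMIs, so that depth is the same. In blood myeloid cells the 8 genes together gave a median of 17 UMIs per cell in pig 1 (8 to 28 from the 10th to the 90th percentile) and 29 in pig 2 (18 to 49), and no cell held 0. In ileal B cells the median was 0 or 1 UMI in each of the 6 libraries, and 36.5% to 61.7% of the cells held 0. Blood B cells had medians of 2 and 6 UMIs, with 16.1% and 1.60% of cells at 0, and T cells had medians of 3 to 12 UMIs over the 8 libraries. The blood and ileal B cells thus differed across the bulk of the cells. At least 4 of the 8 genes were detected in 75.7% (95% Clopper-Pearson interval 71.3 to 79.8) and 94.9% (93.5 to 96.1) of blood myeloid cells, in 8.60% (7.26 to 10.1) and 38.2% (35.5 to 41.1) of blood B cells and in 0% to 2.45% of ileal B cells. Without thinning the shares were 99.03% and 99.9%, 35.3% and 85.0%, and 4.83% to 11.5%. No gate is known to lack these genes, so the ileal B cells, with median depths of 2772 to 3896 UMIs before thinning against 3456 and 4452 in blood B cells, give an upper limit on what free RNA added to the cells of that gate. The intervals cover counting error only, and cells of a library are not replicates.

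Among T cells the share with at least 4 of the 8 genes ran from 2.10% (1.64 to 2.66) in non-PP pig 1 to 34.2% (32.6 to 35.8) in PBMC pig 2, with 18.1% in non-PP pig 2 and 7.21% in PBMC pig 1. In the libraries of pig 2 the share exceeded that of pig 1 in PP (16.3% and 6.32%), non-PP and PBMC, and the library labelled whole ileum pig 1 (16.7%) stood near whole ileum pig 2 (21.1%).

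**Figure D5:**
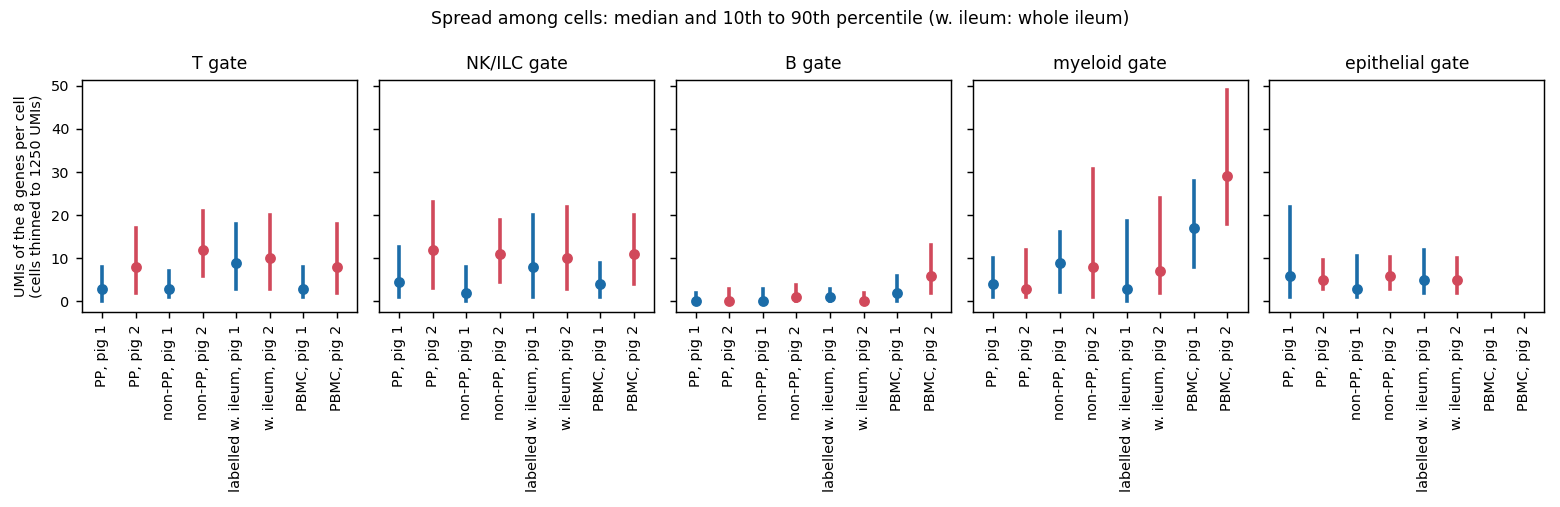
UMIs of the 8 genes per cell after thinning to 1250 UMIs, by gate and library; points are medians over cells, bars run from the 10th to the 90th percentile and colour gives the pig. Blood myeloid cells stand highest with medians of 17 and 29, and ileal B cells lowest with medians of 0 or 1.

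Over the 24 sums of pig, tissue and gate, the members' profiles of log2 CPM correlated pairwise with r between 0.264 (IFI6 and IRF7) and 0.869 (MX2 and IFITM3). These are descriptions over sums that share pigs, libraries and gates. Among 6891 genes with a mean of at least 10 CPM, the genes most like ISG15 were UBE2L6 (r = 0.911), the enzyme that passes ISG15 on to its targets, HERC6 (r = 0.867) and HERC5 (r = 0.864), both HECT-type ligases. Those most like IFIT1 were FBXO39 (r = 0.961), ZNFX1 (r = 0.956) and MAX (r = 0.953), and FBXO39 was also the closest to MX2 (r = 0.896). IFITM3 was closest to IFIT2 (r = 0.938) and CHMP5 (r = 0.937), MX1 to RNF114 (r = 0.922) and IFI6 to B2M (r = 0.894), the light chain of MHC class I. IRF7 and ISG20 had less similar neighbours, with OAS2 (r = 0.843) the closest named gene to IRF7 and PLAAT3 (r = 0.767) that to ISG20.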

How the data were processed

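The 8 deposited matrices hold raw UMI counts per gene and barcode, made by the authors with Cell Ranger (4.0.6 in the submitters' processing notes) on Sscrofa11.1 with a modified Ensembl annotation, before their removal of ambient RNA and doublets. The 32 labelled samples are 4 runs of each of 8 libraries, and each library was taken once. The members and lists were chosen with earlier results of these data known.

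Cells were gated by markers: at least 2 UMIs of T or of B genes, 3 UMIs of 2 genes for the myeloid and NK/ILC gates and 5 UMIs of 3 genes for the epithelial gate, with at least 75% of the UMIs of 5 lineage lists from the gate's own list. Doublets (Scrublet in scanpy 1.11.5) marked 2.72% to 3.76% of cells and were kept in the main values. UMI counts were summed per pig, tissue and gate where both pigs had at least 20 cells, per library for PP against non-PP, and tested in 1 fit each for the wide gates, the narrower gates and the dissections with edgeR 4.0.16 (filterByExpr, TMM, quasi-likelihood, Benjamini-Hochberg over all genes tested, adjusted p under 0.05, R 4.3.3), after tests on simulated data. The fits had 12, 8 and 15 residual degrees of freedom. Ileum and blood of a number come from the same pig, so pig was used as a replicate block in an alternative fit; deviations of the pigs correlated between tissues with r = 0.327 (T), 0.243 (B), 0.0806 (myeloid) and 0.0251 (NK/ILC), and without the library labelled whole ileum pig 1 with r = 0.452, 0.406, 0.140 and 0.0414. DESeq2 1.42.0 and the other alternatives stand in the closing section. All 8 members and the 5 most changed called genes in each direction from a list of 87 other interferon pathway genes (60, 56 and 57 passed the filter in the 3 fits) are named, except where an item is not reported here. Without the block, p-values rest on the spread between these 2 pigs, pooled over the gates and tissues of a fit. Sums of one pig are taken there as independent. In the blocked fit they rest on the spread left after 1 shift between the pigs, assumed alike in all gates and tissues. The members' median ratios of pig 2 over pig 1 were not alike, with 3.05 in PBMC T and 0.64 in PP epithelial cells.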

Additional observations from a re-analysis of the deposited data

Results flagged for a closer look

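Among 40 groups of 6 ileal libraries (8 genes in 5 gates), 2 had a library far from the other 5, where chance gives about 1 in 20. MX1 in the B gate stood at 33.2 CPM in non-PP pig 1 and 4.31 to 12.1 CPM in the others, and that library held 27 B gate cells. MX1 in the epithelial gate stood at 28.3 CPM in PP pig 1 and 5.39 to 11.9 CPM in the others.

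The change from blood to ileum differed between gates by the test of the difference itself for 4 members between the B and T gates: MX1 (−2.02, adjusted p = 0.00253), MX2 (−3.00, adjusted p = 0.0448), IFIT1 (−2.36, adjusted p = 0.0230) and IFI6 (−3.49, adjusted p = 0.00221), on the log2 scale with edgeR. It differed for 2 members between the myeloid and T gates, MX1 (−1.73, adjusted p = 0.0233) and IFIT1 (−3.67, adjusted p = 0.0025). The parts of the gates' make-up and of free RNA in these differences were not tested.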

How the results depend on the processing

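Alternatives were another test (DESeq2), DESeq2's size factors, no filter on low counts, pig as a replicate block, stricter gates, doublets removed, a 10% share of ambient RNA removed, sums per library, and leaving out each sum or the library labelled whole ileum pig 1. The last of these together with the block was added after seeing the data. Of 1764 values of single members under these alternatives 1561 kept direction and side of the threshold, 144 gained and 58 lost a call and 1 reversed: MX2 in the T gate of ileum against blood ran from −0.944 to 1.88 over the sums left out, from −0.09 with all. Of 221 counts 152 stayed within 1.5 times. The cause of the other 69 was not tested, except that leaving out a sum leaves 1 sample in a group, which is then assumed to vary like the others.

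Counts of members called, from the main count, were as follows. With pig as a replicate block, ileum against blood went from 0 to 2 in T, 0 to 2 in CD4 T, 0 to 1 in CD8 T, 1 to 4 in γδ T and 1 to 4 in resting B cells, PP against non-PP in T cells from 0 to 1, and the differences from the T gate from 4 to 7 (B) and 2 to 5 (myeloid). With the replicate block and without the library labelled whole ileum pig 1 these were 2, 1, 2, 4, 5, 7 and 4 (no PP against non-PP value). Other blocked counts stayed within 1.5 times. Without the filter on low counts, ileum against blood gave 4 (T), 4 (NK/ILC), 5 (CD4 T), 5 (CD8 T), 5 (γδ T) and 7 (resting B), PP against non-PP 3 (T) and 1 (NK/ILC), the ileal myeloid gate against lymphocytes 6, and the differences 7 (B), 1 (NK/ILC) and 7 (myeloid). Sums per library, where sums of one pig are not independent, gave 1 (T), 1 (NK/ILC), 2 (γδ T), 2 (resting B), 5 (ileal myeloid against lymphocytes), 7 (B difference) and 4 (myeloid difference). Without the library labelled whole ileum pig 1 alone, counts were 0 in γδ T and 0 in resting B cells, 2 for the B and 1 for the myeloid difference. Stricter gates gave 2 in γδ T cells and 1 for the myeloid difference, removal of ambient RNA gave 2 in γδ T cells, and DESeq2, its size factors and removal of doublets each gave 2 in resting B cells. Shares of all genes called were computed for the main and blocked fits only. The counts under the other alternatives thus do not show whether the members differ from all genes.

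Over the sums or libraries left out in turn, counts of ileum against blood ran from 0 to 3 (T), 0 to 2 (NK/ILC), 3 to 8 (B), 2 to 8 (myeloid), 0 to 2 (CD8 T), 0 to 3 (γδ T) and 0 to 4 (resting B), those of PP against non-PP from 0 to 3 in T cells, those of the ileal myeloid gate against lymphocytes from 0 to 1, and the differences from 0 to 7 (B) and 1 to 7 (myeloid). For stricter gates no value was given for PP against non-PP in the NK/ILC and B gates, where sums fell under 20 cells. With 2 pigs, changes of the size of the SEs given could not be detected, and in the myeloid and NK/ILC gates the UMIs of MX1 and MX2 limit the precision.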

Other observations

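Antibody-secreting cells, gated on JCHAIN and other genes of plasma cells, held the members unevenly. IFI6 stood at 1563 to 1741 CPM in the 4 ileal libraries with at least 20 such cells (31 to 101 cells each), against 142 to 451 CPM in the B gate of the 6 ileal libraries. ISG20 stood at 87.5 to 162 CPM, against 8.34 to 46.4 CPM. The cell-free RNA of the same 4 libraries held IFI6 at 1297 to 3069 CPM and ISG20 at 57.4 to 95.3 CPM, ranges that overlap with those of the antibody-secreting cells, and its part in these levels was not tested. MX1 was at 2.50 to 15.8 CPM and MX2 at 2.50 to 8.79 CPM, both overlapping with the ileal B gate, while IFIT1 was at 3.47 to 10.5 CPM, below the 23.2 to 46.4 CPM of that gate. In blood, 33 and 34 such cells held ISG20 at 240.3 and 603 CPM and IFI6 at 1398 and 2817 CPM in pigs 1 and 2, and the cell-free RNA of the blood libraries held IFI6 at 1437 and 3852 CPM. None of these differences was tested.

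Ileal stromal cells, gated on collagen and vessel genes, numbered 48 and 32 in pigs 1 and 2, with the library labelled whole ileum pig 1 counted in pig 1. IFITM3 was at 2298 and 3269 CPM in them, against 1550 and 2194 CPM in the epithelial gate of the same pigs. IFI6 was at 4244 and 5891 CPM, against 1386 and 1510 CPM, and IFIT1 at 169 and 342 CPM, against 120.0 and 49.5 CPM. The values of these 3 genes lay above those of the epithelial gate in both pigs. So did those of MX2 (80.08 and 99.38 CPM, against 29.35 and 52.06 CPM). ISG20 (36.96 and 38.65 CPM, against 156.7 and 125.6 CPM) and IRF7 (73.92 and 132.5 CPM, against 125.2 and 143.7 CPM) lay below them. ISG15 (492.8 and 988.3 CPM, against 1107 and 410.9 CPM) and MX1 went opposite ways in the 2 pigs. The differences were not tested.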
